A study of Danio rerio with 6 samples.

Results

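This section concerns 9 genes whose products shape and separate chromosomes: 5 genes of condensin I (*smc2*, *smc4*, *ncapd2*, *ncapg* and *ncaph*), the cohesin gene *smc3*, the SMC5/6 genes *smc5* and *smc6*, and the topoisomerase gene *top2a*. They were chosen by symbol, and all 9 were found among the 36155 genes of the count files. All of them passed the filter on low counts, which 21876 genes passed. Zebrafish tails of *prpf31*-/- embryos were compared with those of siblings, with 3 libraries in each group. The *prpf31*-/- embryos are homozygous for a knockout allele, made by CRISPR/Cas9 in the splicing factor gene *prpf31* and carried by a single line. The siblings are *prpf31*+/+ by their labels. All embryos were of strain AB*, were 36 h old after fertilization and had heterozygous parents, so that the eggs of both groups could carry maternal wild-type product. Heads were removed for genotyping, and the tails of embryos of one genotype were pooled for RNA. A tail with its AGM and CHT, the sites where blood stem cells arise and multiply, also holds muscle, spinal cord, skin, notochord and vessels. Every value is an average over these cells, and fewer dividing cells cannot be told apart from less RNA per dividing cell. Whether replicate libraries derived from separate clutches is not stated, so the p-values measure only the spread between these libraries.

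SMC proteins are long ATPases that pair up and, with a bridging subunit called a kleisin, form rings that hold or loop DNA. Condensin compacts chromosomes for mitosis, cohesin holds sister chromatids together and forms loops in interphase, and SMC5/6 acts in DNA repair and replication. Topoisomerase II cuts both strands of one DNA duplex and passes another through, which untangles sister chromatids. In embryos the condensin I genes and *top2a* are known for their high expression in dividing cells.

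The libraries held between 21809870 and 23789933 counts. *prpf31* itself had 475, 576 and 535 counts in *prpf31*-/- tails, against 844, 850 and 854 counts in sibling tails, so the labels and the targeted gene did not conflict. Genes of the mitochondrial genome took 4.78% to 5.62% of counts in *prpf31*-/- tails and 4.19% to 4.35% in sibling tails. The tail genes of the hox13 group had 108 to 529 counts in every library. Markers of head, eye and brain were not all absent: *emx3* had 209 to 254 counts, while *crx* and *rx2* had 0 to 8.

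Of the 9 genes, 2 fell in *prpf31*-/- tails, *top2a* and *smc4*, and none rose. The test was edgeR's quasi-likelihood test with Benjamini-Hochberg adjustment over all 21876 genes at a threshold of 0.05, and it called 10.1% of all tested genes, 4.49% lower and 5.58% higher. DESeq2 and limma called none of the 9 higher either, and none had an unadjusted p under 0.05 with a higher level. At an unadjusted p under 0.05 there were 4 of the 9, all of them lower, where 25.0% of all tested genes passed. The median log2 fold change of the 9 genes was −0.22, and that of all tested genes was −0.0048. The estimate was below 0 for 7 of the 9 genes and for 50.65% of all tested genes. In 4 of the 9 genes (*top2a*, *smc4*, *ncapd2* and *smc6*) the 3 *prpf31*-/- libraries lay below all 3 sibling libraries, a pattern that 15.4% of all tested genes had, while 30.6% did not overlap in either direction. With so few genes, these counts describe the set and do not test it.

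**Figure D1:**
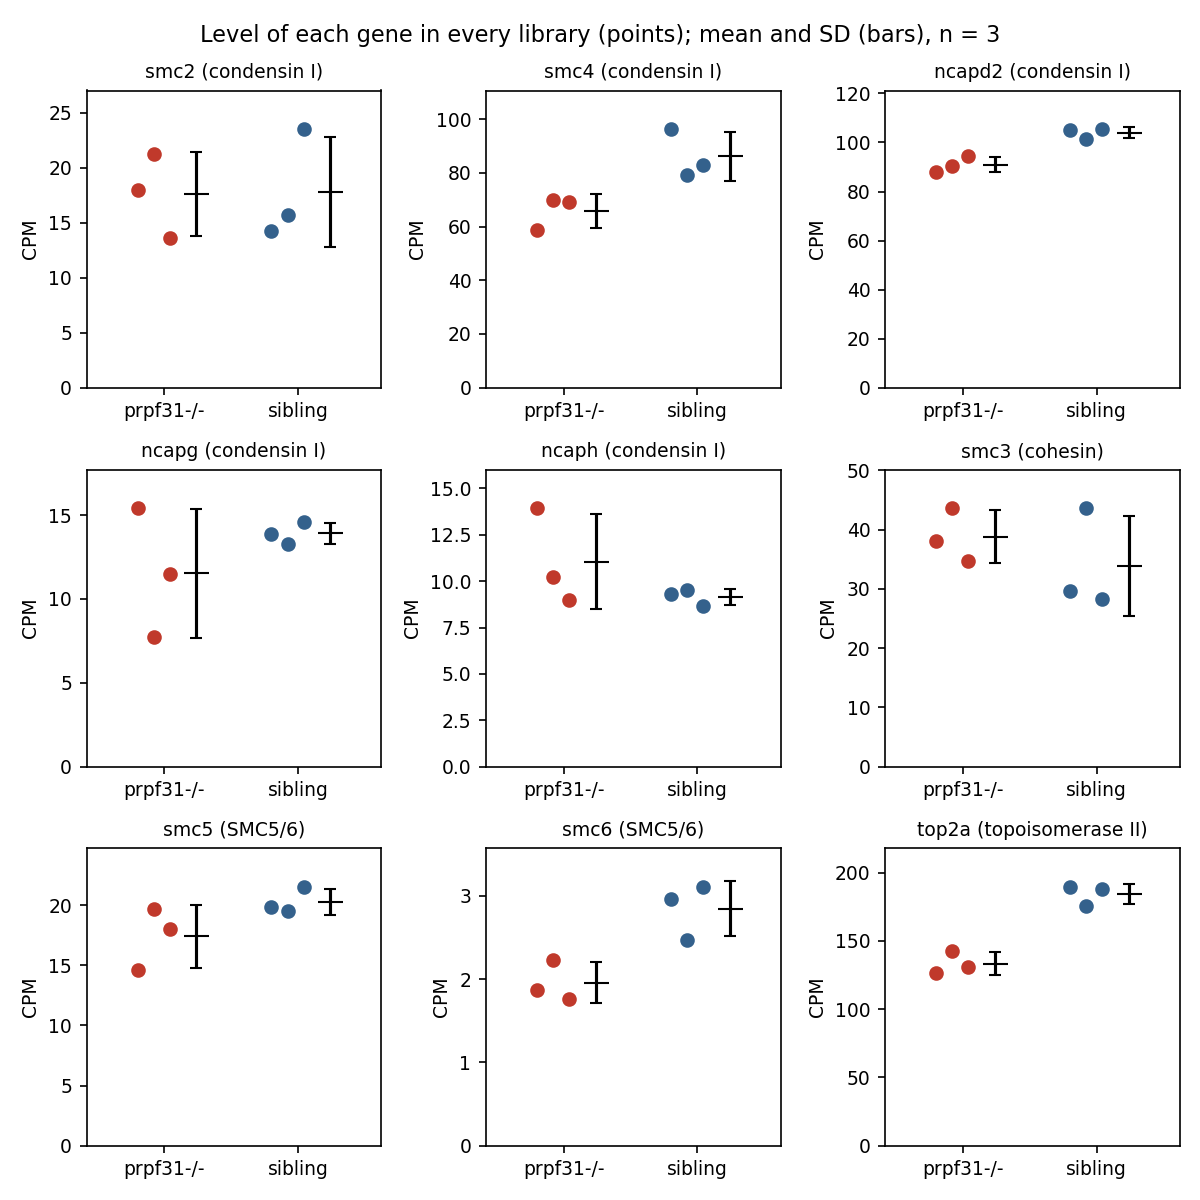
Counts scaled by normalized library size (CPM, vertical axes from 0) of the 9 genes in each *prpf31*-/- library (red) and each sibling library (blue), with mean and SD as black bars (n = 3). The groups lie apart for *top2a*, *smc4*, *ncapd2* and *smc6*, and they overlap for the other 5.

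*top2a* (ENSDARG00000024488, chromosome 12, 10706772 to 10740236, GRCz11, plus strand) encodes topoisomerase II alpha, the form of the enzyme used in dividing cells. It had 2571, 3258 and 3042 counts in *prpf31*-/- tails, against 4335, 3914 and 4186 counts in sibling tails. In CPM, which are counts scaled by the normalized library size, it averaged 133 ± 8.4 in *prpf31*-/- tails and 184 ± 7.4 in sibling tails (SD, n = 3 each). All 3 mutant libraries lay below all 3 sibling libraries, and the groups were separated by more than the spread within either. The mutant level was 72.3% of the sibling level (log2 fold change −0.47, SE 0.075, 95% interval −0.64 to −0.30, adjusted p = 0.00424 from edgeR). The call was kept without any one library (adjusted p = 0.00407 to 0.0353 from edgeR).

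*smc4* (ENSDARG00000038882, chromosome 15, 1534644 to 1573129, plus strand) encodes one of the 2 SMC ATPases of condensin. It had 1190, 1594 and 1615 counts in *prpf31*-/- tails, against 2207, 1762 and 1846 counts in sibling tails. Mean levels were 65.9 ± 6.35 CPM in *prpf31*-/- tails and 86.2 ± 9.0 CPM in sibling tails (SD, n = 3 each). The groups did not overlap, but the highest mutant library, at 69.8 CPM, and the lowest sibling library, at 79.2 CPM, lay closer to each other than the highest and lowest libraries within either group. The log2 fold change was −0.39 (SE 0.10, 95% interval −0.61 to −0.16, adjusted p = 0.0386 from edgeR). This call depended on which libraries were included. It was kept without mutant replicate 2 (adjusted p = 0.0457 from edgeR) and lost without mutant replicate 1 (0.0658), mutant replicate 3 (0.0961), sibling replicate 1 (0.152), sibling replicate 2 (0.0583) or sibling replicate 3 (0.0731). With limma on log2(FPKM + 1) it also missed the threshold (adjusted p = 0.0598).

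**Figure D2:**
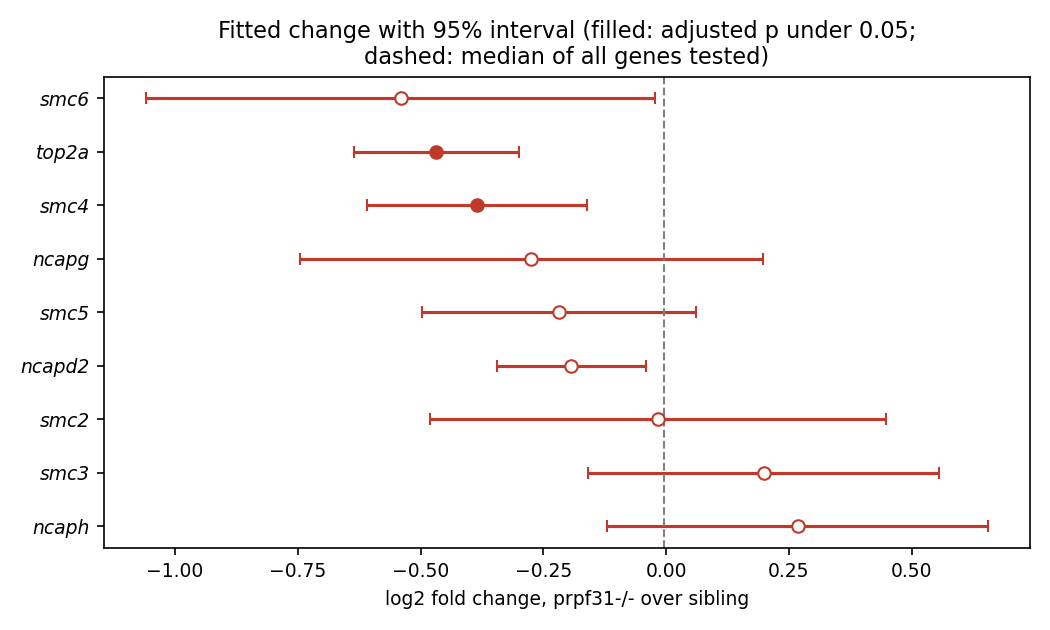
Log2 fold change of each gene in *prpf31*-/- over sibling tails with its 95% interval, filled where the adjusted p of edgeR was under 0.05. *top2a* (−0.47) and *smc4* (−0.39) are filled, and the interval of *smc6*, the gene with the lowest counts, runs from −1.06 to −0.02.

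*smc2* (ENSDARG00000017744, chromosome 1, 19535120 to 19561801, plus strand) encodes the SMC ATPase that pairs with Smc4. It had 18.0, 21.3 and 13.6 CPM in *prpf31*-/- tails, against 14.2, 15.7 and 23.5 CPM in sibling tails. The groups overlapped fully, and libraries of one group differed by up to 1.56-fold in *prpf31*-/- tails and 1.65-fold in sibling tails. The log2 fold change was −0.02 (95% interval −0.48 to 0.45, adjusted p = 0.972 from edgeR). Its sign turned without mutant replicate 3 (0.14) or sibling replicate 3 (0.23), so these libraries gave no direction for *smc2*.

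The condensin I gene *ncapd2* (ENSDARG00000005058, chromosome 2, 44749201 to 44777679, minus strand) encodes a HEAT-repeat subunit that binds the kleisin. It had 88.1, 90.5 and 94.4 CPM in *prpf31*-/- tails, against 105.2, 101.5 and 105.4 CPM in sibling tails. These were tight groups that did not overlap, but the difference was small, with mutants at 87.5% of the sibling level. The log2 fold change was −0.19 (SE 0.068, 95% interval −0.35 to −0.04) and did not pass (adjusted p = 0.109 from edgeR).

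*ncapg* (ENSDARG00000070109, chromosome 1, 23559478 to 23573230, plus strand) encodes the other HEAT-repeat subunit of condensin I. It had 15.4, 7.71 and 11.5 CPM in *prpf31*-/- tails, against 13.9, 13.3 and 14.6 CPM in sibling tails. The sibling libraries were alike while the mutant libraries differed by 2.0-fold, with mutant replicate 1 above every sibling library and mutant replicates 2 and 3 below them. The log2 fold change of −0.27 (95% interval −0.75 to 0.20, adjusted p = 0.472 from edgeR) was −0.54 without mutant replicate 1 and −0.05 without mutant replicate 2.

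*ncaph* (ENSDARG00000061468, chromosome 5, 28259655 to 28270945, plus strand) encodes the kleisin of condensin I. It had 13.9, 10.3 and 8.97 CPM in *prpf31*-/- tails, against 9.29, 9.52 and 8.68 CPM in sibling tails. The high value was that of mutant replicate 1, and the other mutant libraries lay within or close to the sibling range. The log2 fold change was 0.27 (95% interval −0.12 to 0.65, adjusted p = 0.386 from edgeR), and 0.06 without mutant replicate 1.

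Cohesin was represented by *smc3* (ENSDARG00000019000, chromosome 22, 29858535 to 29906764, minus strand), the SMC subunit of the ring that is acetylated when cohesion is set up. It had 38.2, 43.6 and 34.7 CPM in *prpf31*-/- tails, against 29.6, 43.6 and 28.3 CPM in sibling tails. Sibling replicate 2 stood 1.54-fold above the lowest sibling library and level with the highest mutant library. The log2 fold change was 0.20 (95% interval −0.16 to 0.56, adjusted p = 0.495 from edgeR). It was 0.42 without sibling replicate 2 (adjusted p = 0.0847 from edgeR), but 0.08 without sibling replicate 3, 0.11 without sibling replicate 1 and 0.11 without mutant replicate 2 (adjusted p = 0.746 to 0.83 from edgeR).

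The ATPases of SMC5/6 are encoded by *smc5* and *smc6*. *smc5* (ENSDARG00000044282, chromosome 10, 15617741 to 15644974, minus strand) had 14.6, 19.7 and 18.0 CPM in *prpf31*-/- tails, against 19.9, 19.5 and 21.5 CPM in sibling tails. Mutant replicate 2 lay inside the sibling range, and the log2 fold change of −0.22 did not pass (95% interval −0.50 to 0.06, adjusted p = 0.319 from edgeR). Without mutant replicate 1 it was −0.11. *smc6* (ENSDARG00000091821, chromosome 17, 6667441 to 6746046, plus strand) had only 38, 51 and 41 counts in *prpf31*-/- tails, against 68, 55 and 69 counts in sibling tails. The groups did not overlap, and the mutant level was 68.8% of the sibling level. At these counts the change of −0.54 had an SE of 0.23 and did not pass (adjusted p = 0.181 from edgeR). Over 30472 bases the *smc6* locus also runs against *vsnl1b*, a gene on the other strand that averaged 369 counts in *prpf31*-/- tails and 406 in sibling tails. Strand is not kept by the kit used, and where their exons meet the reads of the 2 genes cannot be told apart.

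**Figure D3:**
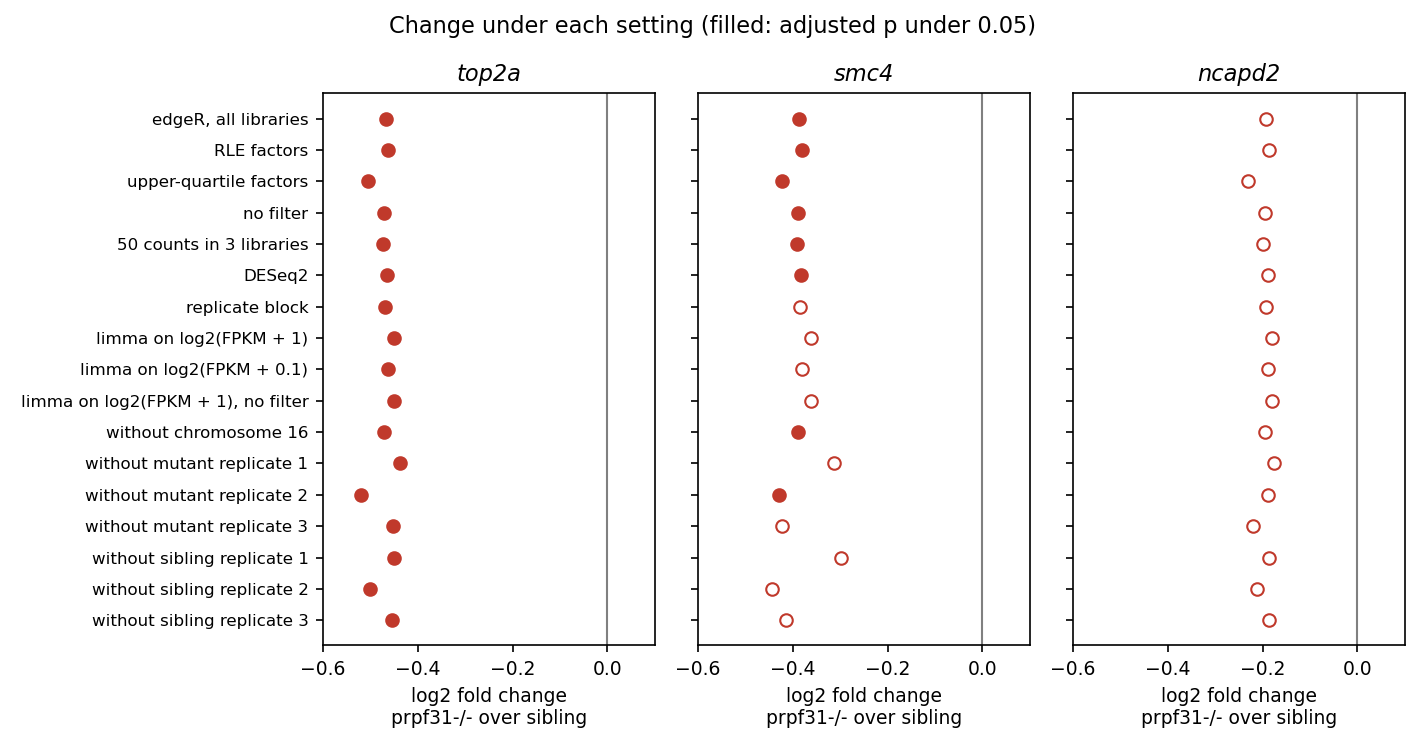
Log2 fold change (horizontal axes, *prpf31*-/- over sibling) of *top2a*, *smc4* and *ncapd2* in the fit of all libraries and in 16 other settings (rows), filled where the adjusted p was under 0.05. *top2a* is filled in every row (−0.52 to −0.44), *smc4* in 7 of the 16 other settings (−0.44 to −0.30 over all 16) and *ncapd2* in none (−0.23 to −0.18).

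Per length of transcript the 9 genes spanned a wide range. In *prpf31*-/- tails the FPKM (fragments scaled by transcript length and library size, as deposited) of *top2a* averaged 23.9 ± 1.51, that of *ncapd2* 16.1 ± 0.530 and that of *smc4* 15.3 ± 1.45, and in sibling tails these averaged 33.0 ± 1.17, 18.4 ± 0.295 and 19.9 ± 2.01 (SD, n = 3 each). The levels of *smc4* and *ncapd2* overlapped in both groups, so their order could not be told. *smc3* followed at 8.25 ± 0.959 FPKM in *prpf31*-/- tails and 7.18 ± 1.84 FPKM in sibling tails, and *smc2*, *ncaph*, *smc5* and *ncapg* lay between mean values of 3.08 and 4.11 FPKM in *prpf31*-/- tails and of 3.39 and 4.56 FPKM in sibling tails. *smc6* was lowest at 0.474 ± 0.0606 FPKM in *prpf31*-/- tails and 0.689 ± 0.0774 FPKM in sibling tails. The 5 subunits of condensin I, which join in equal number in the complex, thus differed several-fold in transcript level within either group. *top2a*, *smc4* and *ncapd2* held 67.2% to 72.4% of the summed FPKM of the 9 genes in *prpf31*-/- tails and 73.1% to 77.3% in sibling tails. This sum ran from 77.4 to 82.9 FPKM in *prpf31*-/- tails and from 93.2 to 96.3 FPKM in sibling tails, without overlap. As *top2a*, *smc4* and *ncapd2* made up most of it, the sum says little about the less abundant genes.

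Ratios within a library asked whether partners changed alike. The FPKM ratio of *smc4* to *smc2* was 3.23, 3.26 and 5.05 in *prpf31*-/- tails, against 6.72, 4.99 and 3.50 in sibling tails. These overlapped (log2 difference −0.38, two-sided exact permutation test, p = 0.3, adjusted p = 0.45 over 3 ratios), so an unequal change of the 2 condensin ATPases was not detectable. Single libraries moved this difference, to −0.15 without sibling replicate 1, −0.59 without mutant replicate 3 and −0.62 without sibling replicate 3. The ratio of *smc6* to *smc5* was 0.138, 0.122 and 0.105 in *prpf31*-/- tails, against 0.161, 0.136 and 0.155 in sibling tails (log2 difference −0.31, exact permutation p = 0.2, adjusted p = 0.45). That of *top2a* to its paralog *top2b* was 0.985, 1.03 and 0.945 in *prpf31*-/- tails, against 0.951, 0.950 and 1.08 in sibling tails (log2 difference −0.01, exact permutation p = 0.8, adjusted p = 0.8), and the sign of this small difference turned without mutant replicate 3 (0.02) or sibling replicate 3 (0.05). With 3 libraries against 3, the smallest p this test allows is 0.1.

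Other genes of the same complexes and of dividing cells moved in both directions. Of 69 tested genes on 6 lists, 4 fell and 4 rose (11.6% called, against 10.1% of all tested genes), with a median log2 fold change of −0.06. The genes that fell were *top2b*, *stag1a*, *slf1* and *bub1*. *top2b*, the paralog of *top2a*, had 131, 141 and 141 CPM in *prpf31*-/- tails, against 203, 189 and 178 CPM in sibling tails. On the log2 scale it fell by 0.46 (SE 0.076, adjusted p = 0.00475 from edgeR), and *top2a* by 0.47. *stag1a*, a HEAT-repeat subunit of cohesin, had 28.1, 29.2 and 30.2 CPM in *prpf31*-/- tails, against 41.7, 43.6 and 44.0 CPM in sibling tails (log2 fold change −0.56, SE 0.079, adjusted p = 0.001905 from edgeR). *slf1*, known in human cells to bring SMC5/6 to damaged DNA, had 1.33, 1.23 and 1.46 CPM in *prpf31*-/- tails, against 3.53, 3.41 and 2.79 CPM in sibling tails (log2 fold change −1.27, SE 0.24, adjusted p = 0.00886 from edgeR). These levels rest on few counts, 27, 28 and 34 in *prpf31*-/- tails and 81, 76 and 62 in sibling tails. *bub1*, a kinase of the spindle checkpoint, fell by 0.50 on the log2 scale (adjusted p = 0.0182 from edgeR), and its call was lost without sibling replicate 1 or 3 (adjusted p up to 0.0855).

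The genes that rose were *ccne2*, *nsmce4a*, *nipbla* and *rad21a*. *ccne2*, a cyclin E gene of S phase entry on chromosome 16 like *prpf31*, had 55.3, 49.8 and 53.9 CPM in *prpf31*-/- tails, against 34.7, 38.6 and 39.9 CPM in sibling tails (log2 fold change 0.49, adjusted p = 0.00661 from edgeR). *nsmce4a*, which encodes the kleisin of SMC5/6, rose by 0.56 on the log2 scale (adjusted p = 0.0257 from edgeR). Among the fits without 1 library its call was kept only without mutant replicate 2 or sibling replicate 3 (adjusted p up to 0.117 from edgeR in the others). *nipbla*, a loader of cohesin (0.30, adjusted p = 0.0401), and *rad21a*, the kleisin of cohesin on chromosome 16 (0.25, adjusted p = 0.0482), kept their calls only without mutant replicate 1 (adjusted p up to 0.155 and 0.221 from edgeR in the other 5 fits without 1 library).

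By list, 0 of 4 genes of condensin II, its regulator *mcph1* included, were called by edgeR, DESeq2 or limma. Of these, 1, *ncapg2*, had an unadjusted p under 0.05 in edgeR's fit, on the lower side. Over all tested genes 25.0% had such a p, in either direction. The condensin II list left out *smc2* and the called *smc4*, the ATPase genes of condensin, which were counted with condensin I. It therefore does not set condensin II as a whole apart from condensin I. Of 22 genes of the cohesin ring, its loader and its regulators 1 fell and 2 rose, and of 6 partners of SMC5/6 1 fell and 1 rose. Of 7 other topoisomerases and their repair enzymes 1 fell, of 11 partners on mitotic chromosomes 1 fell, and of 21 proliferation markers 0 fell and 1 rose. Over all tested genes edgeR called 10.1%, 4.49% lower and 5.58% higher. At an unadjusted p under 0.05 in edgeR's fit 3 of the proliferation markers were lower and 3 higher, beside 25.0% of all tested genes. DESeq2 called 1 of these markers lower and 2 higher. The summed FPKM of the proliferation markers overlapped between groups, at 1007 to 1117 in *prpf31*-/- tails and 1046 to 1075 in sibling tails. Summed as CPM of the library total without normalization factors, the same markers did not overlap, at 2556 to 2636 in *prpf31*-/- tails and 2770 to 2810 in sibling tails. The TMM factors left out of these sums were 0.932, 1.02 and 0.980 in *prpf31*-/- libraries and 1.03, 1.02 and 1.02 in sibling libraries. Once each sum is divided by its factor, mutant replicate 1 lies above every sibling library and the other mutant libraries lie below them. On the normalized scale used for CPM elsewhere the groups thus overlapped, and the gap did not hold. The summed FPKM of the partners on mitotic chromosomes was 198 to 211 in *prpf31*-/- tails and 222 to 232 in sibling tails, without overlap. Abundant genes weigh most in this sum, some of which are also proliferation markers, and only 1 of the 11 tested genes was called. The sum says little about the less abundant partners.

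**Figure D4:**
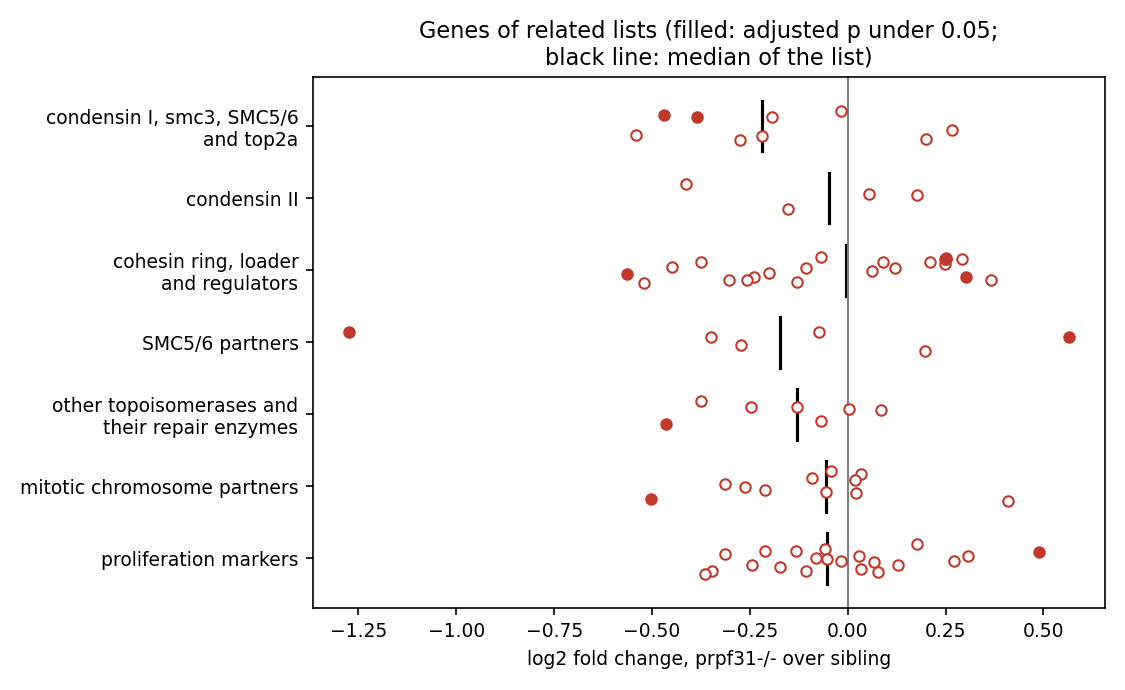
Log2 fold change in *prpf31*-/- over sibling tails for the 9 genes (top row) and for tested genes of 6 related lists, 1 point a gene, filled where the adjusted p of edgeR was under 0.05; the black line is the median of a list. The top row has its median at −0.22 and the lists theirs between −0.17 and −0.0034.

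Among the lists of markers of other cells of the tail, only the sums of red blood cell and vessel genes lay apart between the groups. The numbers of called genes given here stand beside 10.1% called over all tested genes. The summed FPKM of 8 red blood cell genes was 1378 to 1648 in *prpf31*-/- tails and 2117 to 2552 in sibling tails, and 3 of 7 tested genes of that list fell. For 7 vessel genes it was 46.1 to 50.4 in *prpf31*-/- tails and 50.9 to 56.7 in sibling tails, and 1 of 7 fell. The summed FPKM of 13 spinal cord and neuron genes overlapped, at 394 to 456 in *prpf31*-/- tails and 416 to 513 in sibling tails, but the estimate was below 0 for 12 of the 13, with a median log2 fold change of −0.21, and 2 fell and 1 rose. The sums of muscle (1 of 15 tested genes rose), epidermis (1 of 6 rose), notochord and blood stem cell genes also overlapped between the groups. For the 6 tail hox13 genes the median log2 fold change was −0.25, with the estimate below 0 for 5 and none called. The 7 tested head, eye and brain markers had a median of −0.17, with 6 below 0 and 1 called lower. One of 6 notochord markers, *col8a1a*, was at 0 in all libraries, and no other list of cells had such a marker. The part of red blood cell, vessel or neural content, and of the mitochondrial share, in the lower *top2a* and *smc4* was not tested.

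Some genes outside these lists followed the mean pattern of the 9 genes over the 6 libraries closely. Among 6503 other genes with a mean of at least 20 CPM, the 5 with the highest Pearson correlation had r between 0.981 and 0.984. Of these, 4 have a symbol: *sp8a*, a zinc finger transcription factor gene, *gusb*, a lysosomal enzyme gene, *thoc2*, a gene of the THO complex in mRNA export, and *pfkma*, a glycolysis gene. Their log2 fold changes were −0.37, −0.53, −0.50 and −0.45. The gene without a symbol lies on chromosome 16, like *prpf31*, and had a log2 fold change of −0.90. With 6 libraries that share their group difference, such correlations are a description.

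Among the 9 genes themselves, *smc6* and *top2a* (r = 0.961), *ncapd2* and *top2a* (0.943), *smc4* and *ncapd2* (0.925) and *smc4* and *top2a* (0.918) ran most closely together over the 6 libraries, and all 4 lie apart between the groups. *smc2* stood alone, with r between −0.175 and 0.330 to each of the others. *ncaph* and *smc5* ran most strongly in opposite ways (r = −0.884). Mutant replicate 1 had both the highest *ncaph* (13.9 CPM) and the lowest *smc5* (14.6 CPM) of the 6 libraries.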

How the data were processed

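RNA-seq of 6 tail libraries was used. The submitters' processing notes name CASAVA 1.8 for base calling, HISAT2 2.0.5 for alignment, featureCounts 1.5.0-p3 for counting and the build GRCz11; the annotation release is not given in the sources used here. The authors deposited raw counts per gene, and FPKM per gene that equal counts over gene length and over 1 constant per library, 0.935 to 1.05 times its count total. The test on counts was that of edgeR 4.0.16, run in R 4.3.3 (filterByExpr, TMM, quasi-likelihood test of *prpf31*-/- against sibling), which was first tested on simulated data; the biological coefficient of variation was 15.5%. SE is the size of the log2 fold change over the root of F. CPM use the TMM library size. Alternatives were DESeq2 1.42.0, other factors and filters, limma 3.58.1 on FPKM, a replicate block, no chromosome 16 and each library left out. Of 82 listed related symbols, 5 had no match; *hdac8*, *rrm2* and *top1mt* stand for 2 identifiers each. Named genes are the 9, up to 4 called genes of each related list and the 5 most alike. The 9 genes and all lists were chosen with earlier results of these data known. Python 3.11.15, scipy 1.17.1 and matplotlib 3.10.9 were used.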

Additional observations from a re-analysis of the deposited data

How the results depend on the processing

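*top2a* kept its direction and call under all 16 alternatives, and no alternative called any of the 9 genes higher. The number of the 9 called lower, 2 with all libraries, was 1 with the replicate number as a block, 1 with limma on log2(FPKM + 1), 1 with limma on log2(FPKM + 0.1) and 1 with limma on log2(FPKM + 1) without a filter, and 1 to 2 without 1 library; *smc4* was the gene lost. Without 1 library *smc2* ran from −0.18 to 0.23 on the log2 scale. Of the related genes, 7 instead of 4 were lower with upper-quartile factors and with a filter of 50 counts in 3 libraries, and 3 to 5 without 1 library. The number higher, 4, was 2 with upper-quartile factors, 1 with the replicate block, 2 with limma on log2(FPKM + 1) without a filter, 2 without chromosome 16 and 1 to 4 without 1 library. The fit without chromosome 16 left out *ccne2* and *rad21a* themselves, and *nipbla* and *nsmce4a* kept their calls there. Over all genes, 1220 higher and 983 lower became 698 and 455 with the replicate block. Lower genes were 537 with limma on log2(FPKM + 1) without a filter. Without 1 library, 600 to 1215 were higher and 332 to 990 lower; the lowest were without mutant replicate 3. The causes of the other changes were not tested. Replicate numbers did not pair the libraries: deviations of same-numbered libraries had correlations of −0.167, −0.322 and −0.109, and no library correlated best with its own number. The highest correlations were 0.331 for mutant replicate 1 with sibling replicate 2, 0.229 for mutant replicate 2 with sibling replicate 3 and 0.172 for mutant replicate 3 with sibling replicate 1. A pairing under other numbers was not tested. Without 1 library the log2 differences in the ratios ran from −0.62 to −0.15 for *smc4* to *smc2*, from −0.41 to −0.21 for *smc6* to *smc5* and from −0.04 to 0.05 for *top2a* to *top2b*. *smc6*, limited by its 38 to 69 counts, was below the FPKM filter of both filtered limma fits and was not tested there. The related gene *slf1* was not tested in these fits either.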
